A study of Homo sapiens with 8 samples.

Results

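The 10 genes described here encode the p38 branch of the mitogen-activated protein kinase (MAPK) network: the 4 p38 kinases MAPK14 (p38α), MAPK11 (p38β), MAPK12 (p38γ) and MAPK13 (p38δ), the activating kinases MAP2K3 and MAP2K6, and the effector kinases MAPKAPK2, MAPKAPK3, MAPKAPK5 and RPS6KA5 (MSK1). They were taken by symbol from a table of 37441 genes, and each symbol matched 1 Ensembl identifier. RNA was measured by RNA-seq in NCI-H1581 and NCI-H1703, human non-small cell lung cancer cell lines, and in their variants NCI-H1581R and NCI-H1703R, with 2 libraries per variant and 8 libraries in all. The resistant variants had been selected for 4 to 6 months in rising concentrations of CPL304110, an inhibitor of fibroblast growth factor receptors, from 50 nM to 2.5 µM for NCI-H1581R and to 5 µM for NCI-H1703R. All cells grew in medium with 10% serum, which was DMEM/F12 for NCI-H1581 and RPMI 1640 for NCI-H1703, and were harvested 24 h after a medium change. The labels do not say whether that medium held the inhibitor, and each line has 1 resistant variant, so resistance cannot be told apart from other differences acquired by that culture. Signalling through p38 was among the pathways the study examined in resistant cells, and the comparisons below ask which genes of the cascade were higher or lower at the RNA level in the resistant variants and in which line.

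The libraries held 33800389 to 40031710 counts. Replicates came from a repeat of the same dish culture, so p-values measure the spread between such repeats. Those of NCI-H1581R stood furthest apart, with a chi-square per degree of freedom of 96.8 between the 2 libraries against 23.3 to 31.9 in the other variants. VIM, which encodes the mesenchymal filament protein vimentin, was above 1 CPM (counts scaled to a common library size, after TMM normalisation) in every library. FN1, the other mesenchymal marker, reached 1 CPM in every library of NCI-H1703 with its variant but not in all of NCI-H1581 with its variant. The epithelial markers EPCAM, CDH1, KRT8, KRT18 and KRT19 summed to 13.1 to 22.7 CPM in NCI-H1581 with its variant and to 6.76 to 75.6 in NCI-H1703 with its variant. The squamous markers TP63, KRT5, KRT6A and SOX2 summed to 7.49 to 39 CPM in NCI-H1581 with its variant. In NCI-H1703 with its variant they summed to 0.793 to 38.5 CPM. Of the 4, only TP63 reached 1 CPM in every library of NCI-H1581 with its variant, and none did in every library of NCI-H1703 with its variant. Of the alveolar markers NKX2-1, NAPSA and SFTPB, the first and last did so in NCI-H1581 and SFTPB in NCI-H1703. Of the blood cell markers PTPRC, CD3E and CD68, which summed to 15.1 to 96.8 CPM in NCI-H1581 with its variant and 20.2 to 55 in NCI-H1703 with its variant, CD68 was above 1 CPM in every library, CD3E had at most 3 counts in any library, and PTPRC had at most 3 in the 4 libraries of NCI-H1703 with its variant but not in all of NCI-H1581 with its variant. The endothelial marker CDH5 had 3 counts or fewer throughout, whereas PECAM1, the other endothelial marker, exceeded 3 counts in some library of each line with its variant. The 2 summed to at most 0.449 CPM in NCI-H1581 with its variant and 0.238 in NCI-H1703 with its variant. The part of other cell types in the results was not tested.

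p38 kinases respond to stress and cytokines. MAP2K3 and MAP2K6, themselves phosphorylated by upstream MAP3 kinases, phosphorylate a threonine and a tyrosine in the activation loop of the p38 kinases, and the active kinases then phosphorylate effector kinases and transcription factors. MAPKAPK2 and MAPKAPK3 act on HSP27 and on proteins that control mRNA stability, and RPS6KA5 acts on CREB and histone H3. These steps are set by phosphorylation, which RNA levels do not measure.

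The activation loop sequences are shown because they are the sites through which one tier switches on the next, and because they show how far apart the paralogous transcripts are, on which the assignment of reads to each gene rests. The p38 sequences below are GRCh38 coding sequence 5′ to 3′ on the gene's strand, with the Thr-Gly-Tyr codons in capitals; the threonine is codon 180 in MAPK14, MAPK11 and MAPK13 and codon 183 in MAPK12. All lie within exon 7 of 12 of the MANE Select transcript, at chr6:36075863-36075925 (plus strand) for MAPK14, chr22:50266971-50267033 (minus) for MAPK11, chr22:50256122-50256184 (minus) for MAPK12 and chr6:36136671-36136733 (plus) for MAPK13.
MAPK14: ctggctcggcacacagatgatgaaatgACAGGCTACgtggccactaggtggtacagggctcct
MAPK11: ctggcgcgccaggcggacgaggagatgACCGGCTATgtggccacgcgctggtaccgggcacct
MAPK12: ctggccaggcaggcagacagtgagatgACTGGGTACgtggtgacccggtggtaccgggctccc
MAPK13: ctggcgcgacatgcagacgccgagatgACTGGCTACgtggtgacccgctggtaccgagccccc
In the activators the capitals run from the first phosphorylated serine to the phosphorylated threonine, from codon 218 in MAP2K3 (chr17:21304482-21304550, plus, exon 8 of 12) and codon 207 in MAP2K6 (chr17:69523570-69523638, plus, exon 8 of 12).
MAP2K3: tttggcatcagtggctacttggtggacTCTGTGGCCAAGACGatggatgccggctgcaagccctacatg
MAP2K6: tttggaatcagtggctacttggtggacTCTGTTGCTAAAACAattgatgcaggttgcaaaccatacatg

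Over the whole coding sequence the p38 kinases were 63% to 71.5% identical in pairs, with MAPK12 and MAPK13 the closest pair and MAPK14 68% identical to MAPK11. None of the 6 pairs shared a 31-base word anywhere in their annotated transcripts. MAP2K3 and MAP2K6 were 70.3% identical and shared none either, and MAPKAPK2 and MAPKAPK3 were 67.2% identical and shared 10. A stretch of 31 bases that matches one p38 transcript exactly therefore matches no other p38 gene. Overlap with unrelated genes was a larger limit. MAPK12 (chr22:50245450-50261716) shares 2763 exonic bases, 29.7% of its exons, with HDAC10, a histone deacetylase gene on the same strand, so that the split of reads between the 2 genes is uncertain. MAPKAPK5 (chr12:111842013-111902222) shares 15.3% of its exons with the pseudogene ADAM1A on the same strand, which was listed at 0 counts. Over all its transcripts 22.7% of the 31-base words of MAPKAPK5 also occur in other genes, and 2099 of these 3197 words are in ADAM1A. The share of such words was 29.2% for MAPK12, 7.64% for RPS6KA5, 4.44% for MAP2K3 and 4.26% for MAPK13. MAPKAPK3 (chr3:50611520-50649291) and RPS6KA5 (chr14:90847861-91060641) overlap CISH and DGLUCY on the opposite strand over 5.57% and 1.1% of their exons, and the sources used here do not state whether counting used strand. The p38 kinases lie in 2 neighbouring pairs: MAPK14 (chr6:36027782-36111236) and MAPK13 (chr6:36127809-36144524) are 16.6 kb apart, and MAPK12 and MAPK11 (chr22:50263713-50270767) are 2 kb apart.

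MAPK14, the isoform that is widely expressed and best known for inflammatory signalling, was close to constant across the 8 libraries. Its level was 89.9 and 84.2 CPM in the replicates of NCI-H1581, 103 and 86.9 in NCI-H1581R, 93.3 and 101 in NCI-H1703, and 88.5 and 103 in NCI-H1703R. The ranges of sensitive and resistant variants overlapped in both lines. The order of the means ran from 87 ± 4.02 CPM in NCI-H1581 (SD, n = 2, as for every SD given here) over 95.1 ± 11.6 in NCI-H1581R and 95.9 ± 10.4 in NCI-H1703R to 97.3 ± 5.66 in NCI-H1703, and no 2 neighbours in that order differed beyond their spread.

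MAPK11, a close relative of MAPK14 that the same small-molecule p38 inhibitors block, separated the lines, as did each of the 10 genes except MAPK14. Its level was 26.9 and 26.2 CPM in NCI-H1581, 21.1 and 22 in NCI-H1581R, 161 and 141 in NCI-H1703, and 191 and 177 in NCI-H1703R. All 4 libraries of NCI-H1703 and its variant were above all 4 of NCI-H1581 and its variant, and within each line the sensitive and resistant values did not overlap: the resistant variant was the lower one in NCI-H1581 and the higher one in NCI-H1703.

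MAPK12, known from skeletal muscle, was 65.8 and 60.8 CPM in NCI-H1581, 97.6 and 81.2 in NCI-H1581R, 188 and 127 in NCI-H1703, and 249 and 180 in NCI-H1703R. The order of the means was the order of that list, from 63.3 ± 3.53 to 215 ± 49.1 CPM, but the 2 variants of NCI-H1703 overlapped, and replicate 1 was above replicate 2 in each. HDAC10, which shares exons with it, also had the higher value in replicate 1 of both. MAPK13, known from epithelial cells, was close to the lower end of what these libraries could measure: 14 and 21 counts in NCI-H1581, 8 and 24 in NCI-H1581R, 84 and 41 in NCI-H1703, and 84 and 31 in NCI-H1703R. That is 0.213 to 0.61 CPM in NCI-H1581 with its variant and 0.818 to 2.27 CPM in NCI-H1703 with its variant, where 3 counts would be 0.0749 to 0.0897 CPM, and the sensitive and resistant variants overlapped in both lines.

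**Figure D1:**
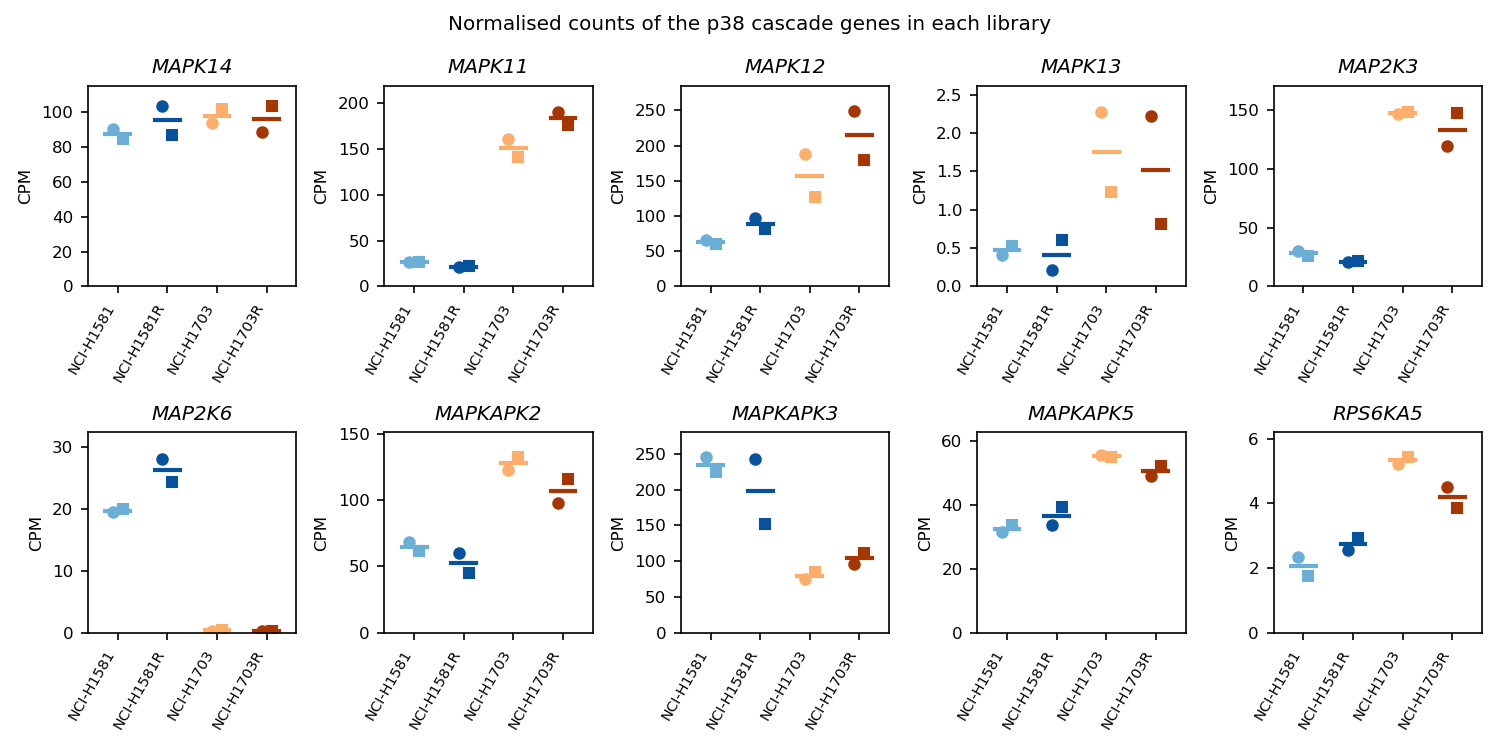
Normalised counts (CPM, vertical axis, from 0) of the 10 genes in each library by variant (horizontal axis). Circles are replicate 1, squares replicate 2 and bars the mean of the 2. MAPK14 lies between 84.2 and 103 CPM throughout, whereas each of the other genes separates NCI-H1581 and its variant from NCI-H1703 and its variant. The share of all genes that separate in this way was not counted. Between the sensitive variants 62.9% of all genes tested passed.

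To compare the isoforms with each other, CPM were divided by transcript length (the median spliced length of a gene's protein-coding transcripts in GENCODE v44) and expressed as a share of the sum over the 4 kinases. On this scale MAPK14 carried 55.8% ± 0.026 of p38 RNA in NCI-H1581 and 51.8% ± 0.412 in NCI-H1581R, and MAPK12 carried 34.5% ± 0.313 and 41.4% ± 0.614. In NCI-H1703 and NCI-H1703R, MAPK12 led with 41.7% ± 6.43 and 47.3% ± 6.31, MAPK14 had 31% ± 5.65 and 25.3% ± 5.17, and MAPK11 had 27.2% ± 0.82 and 27.3% ± 1.19. MAPK11 carried 9.69% ± 0.273 in NCI-H1581 and 6.74% ± 0.986 in NCI-H1581R. MAPK13 never exceeded 0.146% of the sum in any library. MAPK14 was thus first in all 4 libraries of NCI-H1581 and its variant and MAPK12 in all 4 of NCI-H1703 and its variant.

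Which isoform came first depended on the length used, because the annotated transcripts of MAPK14 differ in length: the median was 1376 bases and the MANE Select transcript 4222, against 1618.5 and 1778 for MAPK12. With the MANE Select transcript or the longest coding transcript, MAPK12 was first in all 8 libraries, and MAPK14 fell to 30.6% in NCI-H1581 and 13.5% in NCI-H1703. With the union of exons, MAPK14 was first in NCI-H1581 and its variant (43.5% and 44.3%) and MAPK11 in NCI-H1703 and its variant (64.1% and 64.6%). The table gives no counts per transcript, so the deposited data do not settle which length applies. 3 statements did not depend on it. On all 5 bases, that without division by length included, the MAPK14 share was lower in every library of NCI-H1703 and its variant than in every library of NCI-H1581 and its variant, the MAPK11 share was higher, and MAPK13 was last. The ranges nearest to each other were 8.72% to 15.6% against 27.3% to 30.6% for MAPK14 with MANE Select lengths. These shares have no test, since they describe 2 libraries a variant.

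The activators separated the lines in opposite directions. MAP2K3 was 30.4 and 26.2 CPM in NCI-H1581, 20.4 and 21.2 in NCI-H1581R, 146 and 148 in NCI-H1703, and 119 and 147 in NCI-H1703R. MAP2K6 was the lower one in NCI-H1703, with 19.5 and 20 CPM in NCI-H1581, 28.1 and 24.5 in NCI-H1581R, 0.351 and 0.449 in NCI-H1703, and 0.344 and 0.29 in NCI-H1703R. The last 4 values stand for 11 to 15 counts per library. Per kilobase, MAP2K3 made up 99.9% of the RNA of the 2 activators in both NCI-H1703 and NCI-H1703R, 73% ± 2.36 in NCI-H1581 and 60% ± 3.02 in NCI-H1581R. In NCI-H1581R the 2 replicates gave 57.9% and 62.2%, below the 74.7% and 71.3% of NCI-H1581. Without division by length MAP2K6 was ahead in NCI-H1581R (55.8% ± 3.11), whereas with each of the 4 lengths MAP2K3 led in every library. The sizes of these shares depend on length. The median used for MAP2K3 was 575 bases, shorter than its coding sequence of 1041, against 2256 for its MANE Select transcript. For MAP2K6 the median was 1090.5 and the MANE Select transcript 13405. With MANE Select lengths the MAP2K3 share was 89.4% ± 1.13 in NCI-H1581 and 82.5% ± 1.82 in NCI-H1581R.

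Among the MAPKAPK effectors, by CPM not divided by length, MAPKAPK3 led in NCI-H1581 and its variant. On that scale MAPKAPK2 was level with it or ahead in NCI-H1703 and its variant. MAPKAPK2 was 68.1 and 61.7 CPM in NCI-H1581, 60 and 45.1 in NCI-H1581R, 123 and 133 in NCI-H1703, and 97.5 and 116 in NCI-H1703R. MAPKAPK3, which acts on many of the same substrates, was 246 and 224 CPM in NCI-H1581, 243 and 152 in NCI-H1581R, 74.8 and 84.4 in NCI-H1703, and 96.7 and 112 in NCI-H1703R. The MAPKAPK3 replicates of NCI-H1581R spanned more than the gap to NCI-H1581, whereas both replicates of NCI-H1703R were above both of NCI-H1703. MAPKAPK5, which pairs with the atypical kinases ERK3 and ERK4, was 31.4 and 33.6 CPM in NCI-H1581, 33.6 and 39.2 in NCI-H1581R, 55.6 and 54.9 in NCI-H1703, and 48.9 and 52.2 in NCI-H1703R. RPS6KA5 was low everywhere, at 71 to 115 counts (1.77 to 2.92 CPM) in NCI-H1581 with its variant and 146 to 193 counts (3.85 to 5.44 CPM) in NCI-H1703 with its variant.

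Per kilobase, MAPKAPK3 held 74.1% ± 0.918 of MAPKAPK RNA in NCI-H1581, 71% ± 6.05 in NCI-H1581R, 34.4% ± 1.28 in NCI-H1703 and 44.1% ± 0.319 in NCI-H1703R. MAPKAPK2 held 14.2% ± 0.244, 13.3% ± 0.588, 38.4% ± 0.292 and 31.4% ± 0.859. The leading effector was therefore MAPKAPK2 in both libraries of NCI-H1703 and MAPKAPK3 in both of NCI-H1703R. With the longest coding transcript NCI-H1703R was split, with 1 library led by each, and without division by length MAPKAPK2 led in both. On all 5 bases the MAPKAPK3 share was lower, and the MAPKAPK2 share higher, in every library of NCI-H1703 and its variant than in every library of NCI-H1581 and its variant.

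**Figure D2:**
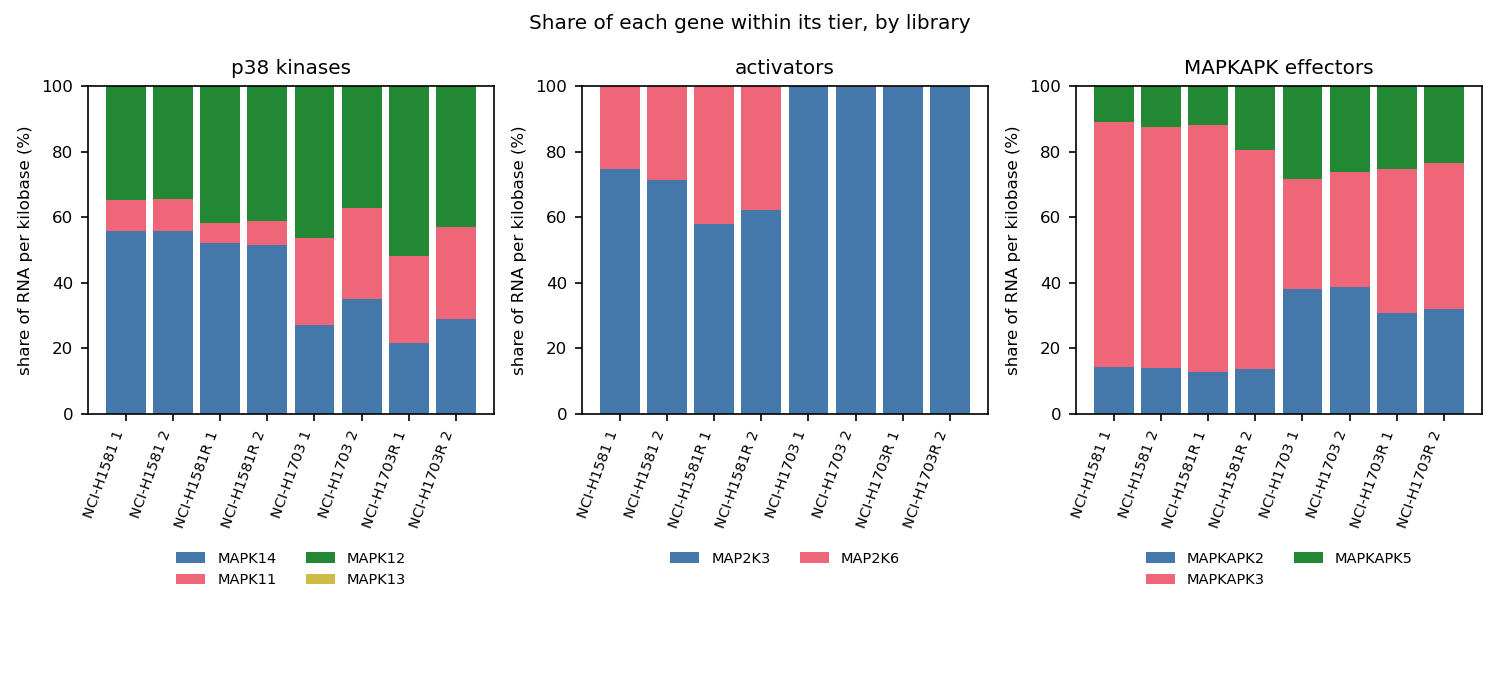
Share (%, vertical axis) of the summed RNA per kilobase carried by each p38 kinase, activator and MAPKAPK effector in each of the 8 libraries (horizontal axis, variant and replicate number). MAPK13, at most 0.146%, is too small to see; MAP2K6 is at most 0.159% in the 4 libraries of NCI-H1703 and its variant.

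With resistance in NCI-H1581, none of the 10 genes passed the test (edgeR quasi-likelihood test, adjusted p under 0.1), where 15.1% of the 18203 genes tested did, 7.63% higher and 7.44% lower. At an unadjusted p under 0.05 there was 1, MAPK12, and DESeq2 called the same gene (adjusted p = 0.0794), beside 17.7% of all genes. MAPK12 had a log2 fold change of 0.51 (SE 0.17, 95% interval 0.10 to 0.91, edgeR adjusted p = 0.124), which is 1.42-fold. HDAC10, with which it shares exons, had a log2 fold change of -0.42 (edgeR adjusted p = 0.293) in the same comparison. MAP2K3 and MAP2K6, the activators, had log2 fold changes of -0.43 (-0.86 to 0.00, edgeR adjusted p = 0.206) and 0.42 (-0.02 to 0.86, edgeR adjusted p = 0.225). MAPK14 was at 0.14 (-0.26 to 0.54), an interval that reaches 1.45-fold higher, and MAPK11 at -0.29 (-0.71 to 0.13). MAPKAPK2 and MAPKAPK3 were at -0.29 and -0.24, MAPKAPK5 at 0.17, RPS6KA5 at 0.43 and MAPK13 at -0.18, with adjusted p from 0.42 to 0.93. The replicates of 7 of the 10 genes did not overlap between the variants, beside 50.6% of all genes tested. 5 of the 10 log2 fold changes were above 0, their median was -0.02 and their median absolute value 0.29, against 0.04 and 0.42 over all genes tested.

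These values moved with the libraries of NCI-H1581R, which differed most from each other. Without its replicate 1, MAPKAPK3 fell by 0.61 on the log2 scale (edgeR adjusted p = 0.014), MAPKAPK2 fell by 0.50 (edgeR adjusted p = 0.0457) and MAPK12 rose by 0.38 (edgeR adjusted p = 0.0857). Without its replicate 2, MAPK12 rose by 0.62 (edgeR adjusted p = 0.0232) and MAP2K6 by 0.50 (edgeR adjusted p = 0.0999), and MAPKAPK3 was at 0.04. Without either NCI-H1581 replicate 0 of the 10 genes passed. In those fits 1 variant has a single library, whose spread is taken to be that of the other.

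With resistance in NCI-H1703, MAPKAPK3 was the 1 gene of the 10 that passed, beside 14.7% of all genes tested, 7.06% higher and 7.67% lower. It rose 1.34-fold, by a log2 fold change of 0.42 (SE 0.12, 95% interval 0.13 to 0.71, edgeR adjusted p = 0.09). MAPK11 had a log2 fold change of 0.31 (SE 0.10, 0.06 to 0.56, edgeR adjusted p = 0.13) and MAPK12 of 0.48 (SE 0.23, -0.08 to 1.05, edgeR adjusted p = 0.269). HDAC10 was at 0.49 (edgeR adjusted p = 0.352). MAPK14 was at 0.01 (-0.27 to 0.28), so that a change of more than 1.22-fold upwards lay outside its interval. MAPKAPK2, MAP2K3 and MAPKAPK5 were at -0.23, -0.11 and -0.10, and MAP2K6, RPS6KA5 and MAPK13, the genes with the fewest counts, at -0.29, -0.32 and -0.19. The replicates of 6 of the 10 genes did not overlap, beside 51.3% of all genes. The median of the 10 was -0.11 and their median absolute value 0.26, against 0.00 and 0.29 over all genes.

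The libraries of NCI-H1703 and NCI-H1703R with the same replicate number deviated together. With the replicate number as a block, 4 of the 10 genes passed, beside 34.9% of all genes: MAPK12 rose by 0.49 (edgeR adjusted p = 0.000297), MAPK11 by 0.31 (edgeR adjusted p = 0.00389) and MAPKAPK3 by 0.42 (edgeR adjusted p = 0.00116), and MAPKAPK2 fell by 0.23 on the log2 scale (edgeR adjusted p = 0.0222). In NCI-H1581 the block left the count at 0, beside 18.1% of all genes. In a fit of 4 libraries the block leaves few residual degrees of freedom, so its p-values rest largely on the spread of other genes. HDAC10, which shares exons with MAPK12, was at 0.49 in NCI-H1703 without the block, and its value with the block is not given here. DESeq2 called MAPKAPK3 (adjusted p = 0.0256) and MAPK11 (adjusted p = 0.0496) in NCI-H1703, beside 16.7% of all genes. The call of MAPKAPK3 without the block was lost without NCI-H1703 replicate 1 (0.31, edgeR adjusted p = 0.374), NCI-H1703 replicate 2 (0.53, edgeR adjusted p = 0.241) and NCI-H1703R replicate 2 (0.31, edgeR adjusted p = 0.219), and kept without NCI-H1703R replicate 1 (0.52, edgeR adjusted p = 0.0818).

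A change shared by both lines was tested over all 8 libraries with cell line as a covariate. None of the 10 genes passed, beside 9.2% of all genes (3.96% higher and 5.24% lower), and 3 had an unadjusted p under 0.05. MAPK12 was at a log2 fold change of 0.47 (SE 0.16, 0.11 to 0.84, edgeR adjusted p = 0.135), MAP2K3 at -0.29 (edgeR adjusted p = 0.213) and MAPKAPK2 at -0.28 (edgeR adjusted p = 0.232). DESeq2 called MAPK12 (adjusted p = 0.0654, beside 11.9% of all genes), and so did edgeR with the replicate number as a block (adjusted p = 0.0759, beside 5.91%) and with a block within each line (adjusted p = 0.0843, beside 3.06%). The former block takes the replicate effect to be the same in both lines, but between lines the replicate differences correlated at r = 0.0412 at most and -0.563 at least. MAPK14 was at 0.05 (-0.19 to 0.30), which leaves out an increase above 1.23-fold.

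Whether the change differed between the lines was tested by the interaction term, and MAPK11 was the 1 gene of the 10 that passed, beside 15.4% of all genes. Its log2 fold change with resistance was higher in NCI-H1703 than in NCI-H1581 by 0.58 (SE 0.17, 0.18 to 0.98, edgeR adjusted p = 0.0744). The size was 0.51 to 0.68 with any 1 library left out, and the call held without either library of NCI-H1581R. It was lost without replicates 1 and 2 of NCI-H1581 (edgeR adjusted p = 0.188 and 0.161), of NCI-H1703 (0.124 and 0.251) and of NCI-H1703R (0.236 and 0.151). MAPKAPK3 differed by 0.64 (-0.05 to 1.32, edgeR adjusted p = 0.25) and passed with a block within each line (0.67, edgeR adjusted p = 0.0991, beside 18.9% of all genes) and without NCI-H1581R replicate 1 (1.01, edgeR adjusted p = 0.0095). RPS6KA5 was at -0.77 (-1.62 to 0.08, edgeR adjusted p = 0.263), and MAPK12 at -0.05 (-0.77 to 0.67), too wide an interval to call its change alike in the 2 lines.

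**Figure D3:**
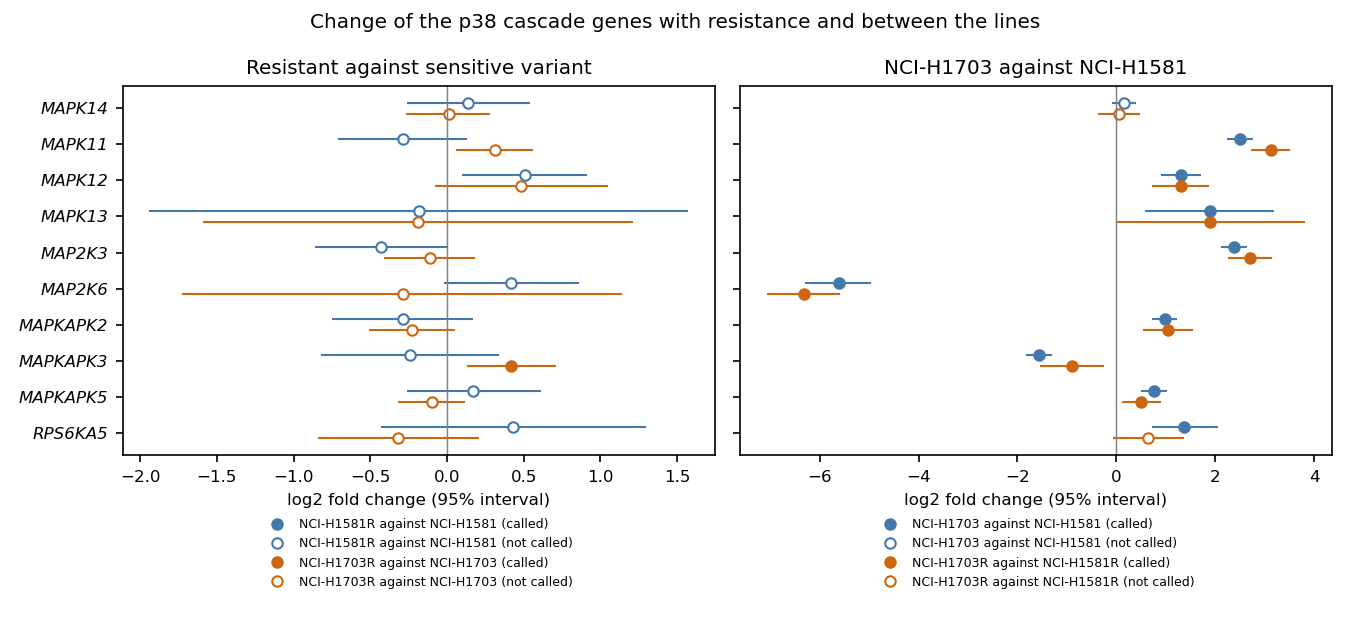
Log2 fold changes (horizontal axis, edgeR) with 95% intervals of the 10 genes, resistant against sensitive variant in each line (left) and NCI-H1703 against NCI-H1581 in the sensitive and in the resistant variants (right; the axes differ in scale). Filled points passed at an adjusted p under 0.1: MAPKAPK3 at 0.42 on the left, and 9 of 10 and 8 of 10 genes on the right.

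The differences between the lines were larger than those with resistance. Between the sensitive variants 9 of the 10 genes passed, 7 higher and 2 lower in NCI-H1703, beside 62.9% of all genes (32.5% higher and 30.4% lower). MAPK11 was 5.7-fold higher in NCI-H1703 (log2 2.51, 2.25 to 2.77, edgeR adjusted p = 1.61e-06), MAP2K3 5.21-fold higher (edgeR adjusted p = 2.04e-06) and MAP2K6 49.3-fold lower (log2 -5.62, -6.29 to -4.96, edgeR adjusted p = 3.16e-06). MAPK12 was 2.49-fold, RPS6KA5 2.61-fold, MAPKAPK2 1.97-fold and MAPKAPK5 1.7-fold higher, with edgeR adjusted p from 0.000162 to 0.00437. HDAC10, which shares exons with MAPK12, was 3.22-fold higher (edgeR adjusted p = 0.000476), and between the resistant variants 6.14-fold higher (edgeR adjusted p = 0.00133), beside 2.46-fold for MAPK12 there. MAPK13 was 3.71-fold higher (log2 interval 0.59 to 3.19, edgeR adjusted p = 0.0222), a call lost without NCI-H1703 replicate 1 (log2 1.38, edgeR adjusted p = 0.183). MAPKAPK3 was 2.95-fold lower (edgeR adjusted p = 1.7e-05). The exception was MAPK14, with a log2 difference of 0.16 (-0.08 to 0.40, edgeR adjusted p = 0.213).

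Between the resistant variants 8 of the 10 genes passed, 6 higher and 2 lower in NCI-H1703R, beside 52.5% of all genes (25.9% higher and 26.7% lower). MAPK11 was 8.74-fold and MAP2K3 6.56-fold higher, and MAP2K6 was 80-fold lower (log2 -6.32, -7.07 to -5.58, edgeR adjusted p = 8.83e-05). MAPKAPK3 was 1.86-fold lower (edgeR adjusted p = 0.0412) and lost the call without NCI-H1703R replicate 1 (log2 -0.80, edgeR adjusted p = 0.205) or replicate 2 (log2 -1.04, edgeR adjusted p = 0.106). MAPKAPK5 was 1.42-fold higher (edgeR adjusted p = 0.0489); its call was lost without NCI-H1581R replicate 1 (log2 0.33, edgeR adjusted p = 0.103), NCI-H1703R replicate 1 (log2 0.54, edgeR adjusted p = 0.246) or NCI-H1703R replicate 2 (log2 0.41, edgeR adjusted p = 0.373). MAPK13 passed narrowly (log2 1.90, edgeR adjusted p = 0.0981) and lost the call without NCI-H1581R replicate 1 (edgeR adjusted p = 0.321), NCI-H1581R replicate 2 (edgeR adjusted p = 0.128) or NCI-H1703R replicate 1 (edgeR adjusted p = 0.395). Without NCI-H1703R replicate 1 the count was 5. MAPK14 was at 0.05 (-0.38 to 0.47) and RPS6KA5 at 0.65 (edgeR adjusted p = 0.123). In bulk RNA, a lower level in each cell and fewer cells with the transcript cannot be told apart.

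Summed per kilobase, the 4 p38 kinases reached 113 ± 5.29 CPM per kb in NCI-H1581, 133 ± 15.3 in NCI-H1581R, 231 ± 28.8 in NCI-H1703 and 279 ± 27 in NCI-H1703R. The resistant libraries were above the sensitive ones in both lines (123 and 144 against 110 and 117, and 259 and 298 against 211 and 251). On the other 4 length bases this held in NCI-H1703 on each and in NCI-H1581 on 3; with the union of exons the ranges in NCI-H1581 overlapped (28.8 to 30.4 against 29.9 to 33.6). The sum of the 2 activators was 67.3 ± 4.8 and 60.2 ± 1.28 CPM per kb in NCI-H1581 and NCI-H1581R, and 256 ± 2.81 and 232 ± 34.8 in NCI-H1703 and NCI-H1703R. In NCI-H1581 the resistant libraries (59.3 and 61.1) were below the sensitive ones (63.9 and 70.7), but without division by length they overlapped. In NCI-H1703 the activator ranges overlapped. The MAPKAPK sum differed less between the lines, at 173 ± 9.02, 151 ± 36.7, 126 ± 6.13 and 129 ± 12.1 CPM per kb in the same order. These sums carry the same dependence on transcript length as the shares and have no test. MAPK12 rose most of the 4 kinases, from a mean of 39.1 to 55.2 CPM per kb in NCI-H1581. In NCI-H1703 its mean went from 97.3 to 133. It passed in neither line with edgeR without a block, and its split of reads with HDAC10 is uncertain. Of all genes tested, 50.6% in NCI-H1581 and 51.3% in NCI-H1703 did not overlap between the variants.

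The study also compared DNA copy number between variants, so each gene was set beside the tested genes within 1 Mb of it, as a description with no test. In NCI-H1703 the 32 neighbours of MAPK11 at the end of chromosome 22 had a median log2 fold change of 0.34, beside 0.31 for MAPK11 itself; 28 were above 0 and 8 passed, all higher. The medians of the 2 replicate pairs were 0.24 and 0.29. Replicate pairs were compared as differences of log2(CPM + 0.5), not as edgeR log2 fold changes, so the edgeR median need not lie between them. The neighbours of MAPK12, mostly those genes again, were at 0.32 beside its 0.48. The median around MAPK11 was 0.61 and 0.18 without NCI-H1703 replicates 1 and 2, and 0.23 and 0.50 without NCI-H1703R replicates 1 and 2, and that around MAPK12 was 0.60, 0.18, 0.25 and 0.48, above 0 in each. In NCI-H1581 the median around MAPK11 was -0.30 beside its -0.29, with replicate pairs at -0.30 and -0.06 and a median of 0.00 without NCI-H1581 replicate 1; MAPK12, at 0.51, did not share the sign of its neighbours (-0.30). MAPKAPK3 in NCI-H1703 went against its surroundings on chromosome 3: 32 of its 41 neighbours were below 0, 8 passed as lower and 2 as higher, their median was -0.49 with replicate pairs at -0.32 and -0.33, and MAPKAPK3 was at 0.42. Around MAPK14 the medians were 0.07 and -0.06 in the 2 lines. The sign of the gene and of its neighbours' median was the same for 6 of the 10 genes in NCI-H1581 and 5 in NCI-H1703.

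**Figure D4:**
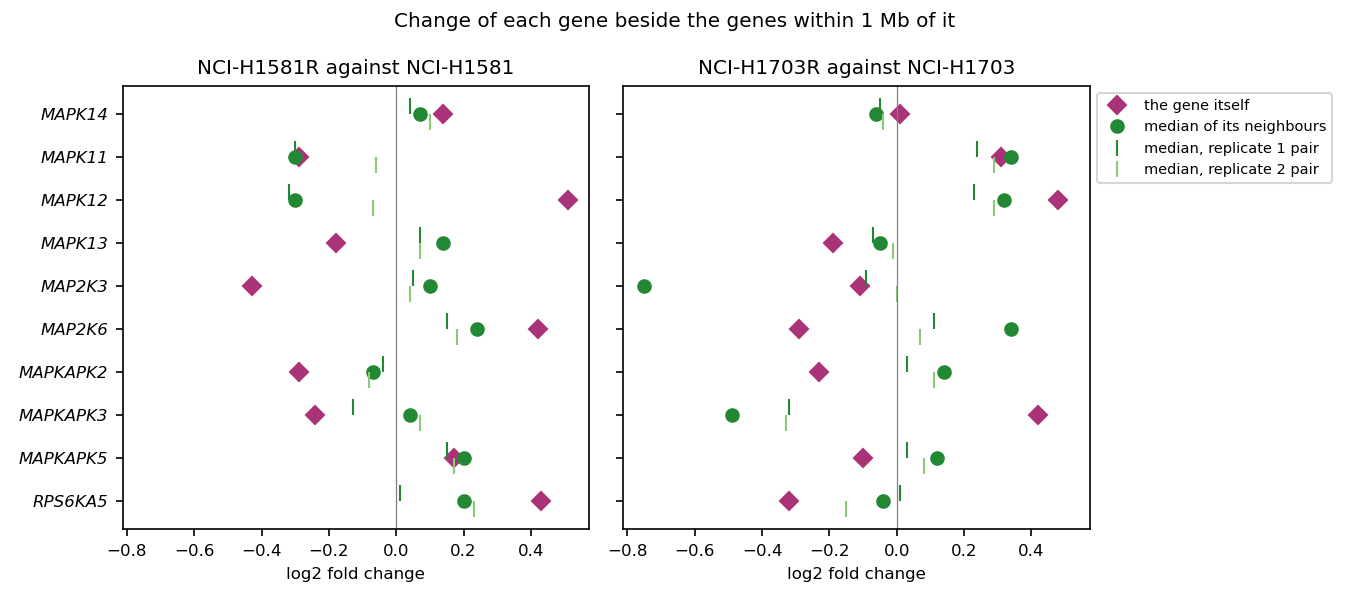
Log2 fold change (horizontal axis) of each of the 10 genes (diamonds) and the median of the tested genes within 1 Mb (circles), resistant against sensitive, in each line. Ticks give the median over neighbours in each replicate pair, as a difference of log2(CPM + 0.5), a scale other than the edgeR log2 fold changes of the circles. In NCI-H1703, MAPK11 at 0.31 lies on the same side as its neighbours' 0.34 and MAPKAPK3 at 0.42 opposite to its neighbours' -0.49.

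For each p38 kinase the 2 genes with the most similar profile were found by the root mean square difference of centred log2 values over the 8 libraries, among 11174 genes with a mean of at least 5 CPM. MAPK14 was nearest to EIF4E, the cap-binding translation factor (0.046), and DUSP12 (0.050), and MAPK11 to BCL6, a transcriptional repressor (0.134), and RECQL, a DNA helicase (0.162). MAPK12 was nearest to C18orf32 (0.183) and ARRDC1 (0.190), and MAPK13 to ARHGAP33 (0.120) and ARGLU1 (0.143). For MAPK14, whose own log2 values had an SD of 0.110, this measure mainly finds other genes of constant level. MAPK13 was at 0.213 to 0.61 CPM in NCI-H1581 with its variant. The offset of 0.5 CPM added before taking logs narrows differences at such levels, so its nearest genes are uncertain.

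The wider pathway was read from a list of 52 genes, of which 47 had enough counts to be tested. IL6, CXCL8, IL1B and TNF, cytokine genes that p38 controls in immune cells, and GADD45G had at most 2 counts in any library. In NCI-H1581, 7 of the 47 rose and 7 fell, and in NCI-H1703, 7 rose and 8 fell. Of all genes tested, 7.63% rose and 7.44% fell in NCI-H1581, and 7.06% rose and 7.67% fell in NCI-H1703. 5 passed in both lines, 2 in the same direction and 3 in opposite ones. Of all genes tested, 1.64% passed in both lines in the same direction and 1.74% in opposite directions. DDIT3, the stress transcription factor CHOP and a p38 substrate, rose in both, from 16.4 and 12.3 CPM to 25.7 and 42.7 in NCI-H1581R (log2 1.27, edgeR adjusted p = 0.0439), and from 29.7 and 22.5 CPM to 64.7 and 55.8 in NCI-H1703R (log2 1.24, edgeR adjusted p = 0.00967). It shares 27.2% of its exons with MARS1 on the opposite strand, a gene with more counts, so its share of reads is uncertain if counting did not use strand. GADD45B, which activates the upstream kinase MAP3K4, fell in both, from 7.57 and 6.19 CPM to 3.27 and 3.35 in NCI-H1581R (log2 -1.04, edgeR adjusted p = 0.0697) and from 66.1 and 62.8 to 35.2 and 40.5 in NCI-H1703R (log2 -0.74, edgeR adjusted p = 0.0132). In NCI-H1581 both calls were lost without NCI-H1581 replicate 1 (edgeR adjusted p = 0.152 for DDIT3 and 0.372 for GADD45B) and without replicate 2 (0.298 and 0.245). In NCI-H1703 that of DDIT3 was lost without NCI-H1703 replicate 2 (edgeR adjusted p = 0.133), and that of GADD45B without NCI-H1703 replicate 1 (edgeR adjusted p = 0.167) or replicate 2 (edgeR adjusted p = 0.159).

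The other 3 went in opposite directions. MAP3K5 (ASK1), an upstream kinase activated by oxidative stress, had 7 and 31 counts in NCI-H1581 and 1269 and 1773 in NCI-H1581R, a 76.8-fold rise (log2 6.26, 5.25 to 7.28, edgeR adjusted p = 0.000331), and fell from 717 and 702 counts to 278 and 347 in NCI-H1703R (log2 -1.26, edgeR adjusted p = 0.00937). GADD45A rose from 26 and 18 counts to 98 and 115 in NCI-H1581R (log2 2.21, edgeR adjusted p = 0.0316) and fell from 58 and 57.4 CPM to 32.8 and 43.2 in NCI-H1703R (log2 -0.57, edgeR adjusted p = 0.0635). PLA2G4A, the cytosolic phospholipase that p38 phosphorylates, fell from 38 and 72 counts to 15 and 12 (log2 -2.06, edgeR adjusted p = 0.0866) and rose from 53 and 47 to 132 and 146 (log2 1.40, edgeR adjusted p = 0.0385). The MAP3K5 replicates did not overlap between variants in either line. Its rise in NCI-H1581R passed without each single library, at a log2 fold change of 5.66 and 7.55 without NCI-H1581 replicates 1 and 2 and of 6.46 and 6.02 without NCI-H1581R replicates 1 and 2, and its fall in NCI-H1703R lost the call without NCI-H1703 replicate 1 (edgeR adjusted p = 0.13) or replicate 2 (edgeR adjusted p = 0.159). GADD45A lost its call in NCI-H1581 without NCI-H1581 replicate 2 (edgeR adjusted p = 0.207), and in NCI-H1703 without NCI-H1703 replicate 1, NCI-H1703 replicate 2 or NCI-H1703R replicate 1 (edgeR adjusted p = 0.295, 0.305 and 0.136). PLA2G4A lost it without any 1 library. In NCI-H1581 the edgeR adjusted p was then 0.13 and 0.331 without the sensitive replicates 1 and 2 and 0.106 and 0.169 without the resistant ones, and in NCI-H1703 it was 0.255 and 0.247, and 0.108 and 0.132.

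Among genes that passed in 1 line, ZFP36, the mRNA-destabilising protein tristetraprolin that MAPKAPK2 phosphorylates, fell in NCI-H1581R from 407 and 378 counts to 21 and 100 (log2 -2.76, edgeR adjusted p = 0.0206) and was at -0.20 in NCI-H1703. JUN, an AP-1 subunit, fell in NCI-H1703R from 59.4 and 57.4 CPM to 15.3 and 21.2 (log2 -1.65, edgeR adjusted p = 0.00415) and was at -0.02 in NCI-H1581. MKNK1, an effector kinase that phosphorylates EIF4E, rose in NCI-H1581R from 4.9 and 9.51 CPM to 26.2 and 13.8 (log2 1.46, edgeR adjusted p = 0.0836) and was at -0.20 in NCI-H1703; its test of the difference between the lines gave an edgeR adjusted p of 0.199, while those of ZFP36 and JUN gave 0.0175 and 0.0269. The call of ZFP36 was lost without NCI-H1581 replicate 1 (log2 -2.60, edgeR adjusted p = 0.124), and its size was -2.94 without NCI-H1581 replicate 2, -2.05 without NCI-H1581R replicate 1 and -4.26 without NCI-H1581R replicate 2. The call of JUN was lost without NCI-H1703 replicate 1 or 2 (edgeR adjusted p = 0.106 and 0.11), and that of MKNK1 without NCI-H1581 replicate 1, NCI-H1581 replicate 2 or NCI-H1581R replicate 1 (edgeR adjusted p = 0.35, 0.113 and 0.11).

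The genes named next were chosen after their values were seen. By role, upstream kinases and adaptors had 3 rises and 2 falls among 20 tested in NCI-H1581 and 3 rises and 4 falls in NCI-H1703. MAP2K4, a further kinase able to phosphorylate p38, was among the rises in NCI-H1581 (log2 0.88) and passed in the fit shared by both lines (log2 0.59). It did not pass in NCI-H1703 (log2 0.34, edgeR adjusted p = 0.121), and the difference between the lines passed (-0.56, edgeR adjusted p = 0.093). Of the 8 phosphatases tested, DUSP16 and PPM1A rose in NCI-H1581 (log2 0.98 and 0.62) and DUSP1 and DUSP8 fell in NCI-H1703 (log2 -0.96 and -1.74). DUSP8 had few counts and uneven replicates, with 178 and 106 counts in NCI-H1703 and 63 and 26 in NCI-H1703R. Of the 4 other substrates and RNA-binding proteins, HSPB1, which encodes HSP27, fell in NCI-H1581 beside ZFP36 and PLA2G4A (log2 -1.04, from 440 ± 64.6 to 213 ± 11.5 CPM). Of the 8 transcription factors, DDIT3 and ELK1 (log2 1.06) rose and CREB1 fell (log2 -0.38) in NCI-H1703, and DDIT3 rose and MEF2C fell (log2 -2.73) in NCI-H1581. MEF2C had 112 counts in each library of NCI-H1581 and 18 and 17 in NCI-H1581R. Of the 4 further effector kinases, MKNK1 rose and RPS6KA4, which encodes MSK2, fell (log2 -0.98) in NCI-H1581, and MKNK2 rose in NCI-H1703 (log2 0.79). PTGS2 and FOS, the other output genes with enough counts, did not pass in either line. MAP2K4, TAB3, MKNK2, DDIT3 and PTPRR rose and GADD45B and DUSP1 fell in the fit over both lines, 5 and 2 of 47, where 3.96% of all genes rose and 5.24% fell. PTPRR had at most 1 count in any library of NCI-H1703 or its variant, so its value comes from NCI-H1581. The count was 3 rises and 1 fall with the replicate block, 2 and 1 when that block was set within each line, and 5 and 7 with DESeq2.

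The pathway counts also moved with single libraries. In NCI-H1581 the 14 called genes became 3 without either NCI-H1581 replicate, 23 without NCI-H1581R replicate 1 and 17 without NCI-H1581R replicate 2. In NCI-H1703 the 15 became 1 and 0 without NCI-H1703 replicates 1 and 2, and 12 without either NCI-H1703R replicate. The sign of the change was kept without each single library for DDIT3, GADD45A, GADD45B, MAP3K5 and PLA2G4A in both lines.

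**Figure D5:**
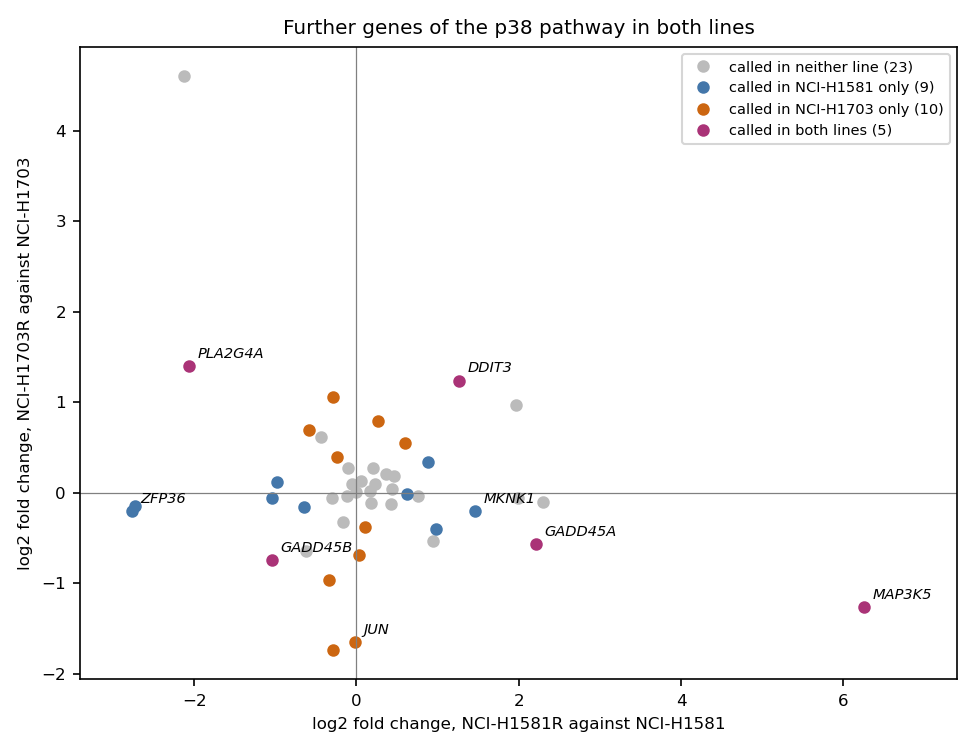
Log2 fold change of the 47 tested pathway genes with resistance in NCI-H1581 (horizontal axis) and NCI-H1703 (vertical axis), coloured by the line in which they passed at an adjusted p under 0.1; named genes are labelled. DDIT3 and GADD45B have the same sign in both lines, and MAP3K5, GADD45A and PLA2G4A have opposite signs.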

How the data were processed

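RNA-seq (paired-end, Illumina) was analysed from 1 table of gene-level estimated counts that the authors made with Salmon against GRCh38 and tximport; the deposited expected counts were whole numbers and not normalised, and cutadapt is also named in the submitters' processing notes. Tool versions, transcript annotation, strandedness and the tximport scaling option are not given in the sources used here. Genes with at least 10 counts over the 8 libraries were kept (18203). Each comparison was fitted over all of them with edgeR 4.0.16 (TMM, quasi-likelihood test, two-sided) in R 4.3.3, and p-values were Benjamini-Hochberg adjusted with a threshold of 0.1, as in the study. DESeq2 1.42.0, other normalisations and filters, a replicate block and leaving out each library were alternatives. Samples were grouped by the labels' line and variant. The 10 genes and the pathway list were chosen with earlier results of these data known. Pathway genes were named if called in both lines, or among the 3 largest changes of a line with a mean of at least 5 CPM; for each p38 kinase the 2 nearest profiles were named. Lengths, positions and sequences came from GENCODE 44. The labels say that the procedure was repeated for the second replicate. Differences between replicates 1 and 2 correlated across 10419 genes (r = 0.261 between NCI-H1581 and NCI-H1581R, 0.562 between NCI-H1703 and NCI-H1703R), so replicate number was used as a block within a line. The fits were tested on simulated counts. Of 50 genes changed 1.5-fold, 4 were recovered in NCI-H1581, 1 in NCI-H1703, 17 in the fit over both lines and 1 by the interaction term. Of 50 changed 2-fold, 26, 25, 41 and 7 were recovered in the same order. Changes of 1.5-fold were thus mostly missed in the simulation. It took each gene's spread from all 8 libraries together and changed only 200 genes, so the recovery in the data may differ. For a gene that did not pass, its 95% interval gives the changes that remain possible. That of MAPK14 in NCI-H1703 was -0.27 to 0.28 on the log2 scale.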

Additional observations from a re-analysis of the deposited data

Results flagged for a closer look

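By the interaction term (edgeR adjusted p under 0.1) the change with resistance differed between the lines for 1 of the 10 genes and 16 of the 47 pathway genes, beside 15.4% of all genes. The 6 described here are MAPK11 and 5 of the 8 pathway genes named by the rule for named genes. The values are the log2 fold change in NCI-H1703 minus that in NCI-H1581. MAPK11 was at 0.58, and was higher in NCI-H1703R and lower in NCI-H1581R than in the sensitive variants. With edgeR without a block neither change passed alone, and DESeq2 called that in NCI-H1703 (adjusted p = 0.0496). Among the pathway genes the value was -2.81 for GADD45A, -7.54 for MAP3K5, 3.44 for PLA2G4A, 2.54 for ZFP36 and -1.65 for JUN. These 5 were chosen from the list by their change in the separate comparisons of the same libraries, so the interaction is not independent of that choice. The MAP3K5 value rests on 7 and 31 counts in NCI-H1581.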

How the results depend on the processing

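With 2 libraries a variant, counts of calls moved easily while most directions did not. Of the 10 genes, NCI-H1581R against NCI-H1581 gave 1 with DESeq2 or with at least 10 counts in every library, 2 in one fit of all 8 libraries, and 0 to 3 with 1 library left out. NCI-H1703R against NCI-H1703 gave 2 with DESeq2 or with at least 10 counts in every library, 0 with RLE normalisation, without a filter, in one fit of all 8 libraries or at 0.05, 4 with the replicate block, and 0 to 1 with 1 library left out. The shared change gave 1 with DESeq2, with the replicate block and with the block within each line. The difference between the lines gave 2 with the block within each line, 0 at 0.05 and 0 to 2 with 1 library left out. The contrasts between the lines gave 8 to 9 (sensitive) and 5 to 7 (resistant) with 1 library left out. The pathway count in NCI-H1581 was 22 in one fit, 9 at 0.05 and 3 to 23 with 1 library left out, and in NCI-H1703 0 to 12. The block within each line and the MANE Select lengths were added after the data were seen.

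The replicate block changed no other call of the 10 genes except MAPKAPK5 between the resistant variants (edgeR adjusted p = 0.149), where it gave 7 calls. Replicate differences of NCI-H1581R and NCI-H1703R ran opposite (r = -0.563), and the crossed pairing, added after the data were seen, gave 9 calls.

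The MAPK14 share was, in the order NCI-H1581, NCI-H1581R, NCI-H1703, NCI-H1703R, 43.5%, 44.3%, 16.5% and 13.5% with the union of exons, 30.7%, 27.5%, 13.5% and 10.5% with the longest coding transcript, 30.6%, 27.5%, 13.5% and 10.5% with MANE Select, and 49.1%, 46%, 24.2% and 19.5% without length. By single library it was 55.7% to 55.8%, 51.5% to 52.1%, 27% to 35% and 21.6% to 28.9%. Within 5 Mb, 3 genes shared their neighbours' sign in NCI-H1703, and 3 to 5 with 1 library left out.

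Values near 0 changed sign. MAPK14 in NCI-H1703 was at -0.0054 (DESeq2), -0.0052 (RLE), -0.0011 (10 counts in every library) and -0.02 (one fit). MAPK11 in the shared fit was at -0.0095, -0.0047, -0.0048, -0.00074, -0.0065 and -0.0028 (DESeq2, RLE, 10 counts in every library, block, legacy quasi-dispersions, block within each line). RPS6KA5 there was at 0.01, 0.0032, 0.03 and 0.00094 (DESeq2, no filter, legacy quasi-dispersions, block within each line). MAPK13 between the lines was at 0.04, 0.02 and 0.01 (DESeq2, RLE, no filter). With 1 library left out, in NCI-H1581, MAPK13 ran from -1.16 to 0.38, MAPKAPK3 from -0.61 to 0.04 and JUN from -0.37 to 0.36. In NCI-H1703, MAPK14 ran from -0.11 to 0.12, MAPK13 from -1.07 to 0.36, MAP2K3 from -0.28 to 0.04 and MKNK1 from -0.91 to 0.29. In the shared fit, MAPK14 ran from -0.01 to 0.11, MAPK11 from -0.08 to 0.08, MAPK13 from -0.70 to 0.15, MAPKAPK3 from -0.04 to 0.25, MAPKAPK5 from -0.06 to 0.07 and RPS6KA5 from -0.15 to 0.11. In the difference, MAPK12 ran from -0.31 to 0.26, MAPK13 from -0.92 to 0.92 and MAPKAPK2 from -0.15 to 0.26. Between the resistant variants MAPK14 ran from -0.12 to 0.14. The causes of these differences were not tested. MAPK13, MAP2K6 in NCI-H1703 and RPS6KA5 had the fewest counts, and their intervals spanned up to several-fold.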
